A study of Mus musculus with 8 samples.

Results

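The mouse genes described here encode potassium channels and their accessory subunits, other than the Kcnq, Kcnd and Kcnip genes. They were chosen by name, as symbols beginning with Kcn outside those 3 groups, and by level, as at least 0.5 FPKM (fragments mapped, scaled to transcript length and to library size) in at least 1 of the 4 groups. Of 78 Kcn symbols among the 15794 genes listed in any expression table, 66 met the rule on names and 57 of them also met the rule on level. Cassette exons with the same symbols were taken from the splicing tables.

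The study lowered Rbfox1 and Rbfox3, which encode neuronal RNA-binding proteins that act on splicing and on messages in the cytoplasm, in cultured mouse hippocampal neurons, and then added back 1 splice isoform of Rbfox1 that is either cytoplasmic or nuclear. All groups were 14 days in vitro at RNA extraction, and all had received an AAV2/9 vector driven by the synapsin I promoter on day 9 (1500 genome copies per cell, 12 hours) and Accell siRNA from day 10 for 4 days (1.2 mM as labelled). The control had the EGFP vector and non-targeting siRNA, and the knockdown had the EGFP vector and siRNAs against Rbfox1 and Rbfox3. The cytoplasmic and nuclear rescues had those same 2 siRNAs with a vector for Flag-tagged Rbfox1_C or Rbfox1_N (siMt in the vector names). Each group had 2 libraries of ribosomal RNA-depleted total RNA, sequenced as non-stranded 50-base pairs, but the deposited tables hold 1 value per group. No spread between libraries can therefore be given, the depth per library is unknown, and whether libraries of different groups overlapped cannot be read from these tables.

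Potassium channels let potassium leave the cell and so hold neurons near rest, end action potentials and set how often they recur. Voltage-gated (Kv) channels open on depolarisation, inward rectifiers (Kir) and 2-pore-domain (K2P) channels carry current near rest, and calcium- or sodium-activated channels respond to ions that enter during firing. Many of these channels are assembled from several kinds of pore-forming and accessory subunit, and the large-conductance calcium-activated (BK) channel is known for extensive alternative splicing.

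The targeted genes followed the labels. Rbfox1 was listed at 25.7 FPKM in the control, 1.94 in the knockdown, 16.1 in the cytoplasmic rescue and 38.2 in the nuclear rescue, and Rbfox3 at 12.4, 1.59, 1.59 and 1.53. Rbfox2, the remaining gene of the family, was at 35.4, 42.1, 33.2 and 17.7 FPKM. In the nuclear rescue it was called lower than in the knockdown, at -1.25 on the log2 scale (q = 1.72e-09 in the authors' deposited table). Of 10 neuronal marker genes 9 were listed, and their summed level was 1168, 1111, 1098 and 1132 FPKM in the same order. Their median log2 fold change in the knockdown was -0.19, and 1 was called, Neurod2, a transcription factor gene of excitatory neurons, at 8.91 FPKM in the control and 6.30 in the knockdown (q = 0.0303 in the authors' deposited table). That sum holds opposite differences: Tubb3 was at 291 and 408 FPKM in the control and knockdown and Snap25 at 456 and 323, neither called. Without Tubb3, a split made after seeing the values, the sum was 876 FPKM in the control and 703, 758 and 745 in the other groups. All 10 astrocyte markers were listed too, at a summed 1576, 1580, 1425 and 1439 FPKM, so the libraries of these labelled neurons also held glial RNA. Of the 10 interneuron markers, 4 were lower in the knockdown (Cck, Gad2, Npy and Vip) and 1 was higher (Calb2). Their summed level was 626 FPKM in the control and 484 in the knockdown. Npy was at 155 and 38.6 FPKM, Cck at 194 and 122, and Calb2 at 90.1 and 171. Gad1, Lhx6, Pvalb, Reln and Sst were not called. Over all genes listed, 1.58% were called lower and 0.776% higher. Of 9 listed microglial markers 3 were lower, at a summed 12.4 and 7.20 FPKM. Of 12 oligodendrocyte lineage markers 1 was lower and 4 were higher in the knockdown, at a summed 268 and 285 FPKM. Of 6 listed vascular markers (of 10) none was called in the knockdown, at a summed 24.97 and 24.3 FPKM. Against the knockdown, the authors' deposited table called Npy higher in the cytoplasmic rescue (log2 change 0.56, q = 0.0220). It called the vascular marker Kdr lower there (-0.85, q = 0.0299). No marker of these lists was called in the nuclear rescue. In bulk RNA, fewer cells of a type and less RNA per cell cannot be told apart, and the part of these shifts in the channel results was not tested.

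Channel messages covered a wide range of levels. In the control the lowest, median and highest members were at 0.373, 3.78 and 68.8 FPKM. The 10 most abundant held 60.6% of the summed level, and 17 members reached 10 FPKM. The order began with Kcnj4 (68.8 FPKM), the beta subunit gene Kcnab2 (39.1), the K2P gene Kcnk1 (36.8), Kcnj3 (35.0) and the Kv1 gene Kcna1 (27.7). Kcnab2, Kcnk1 and Kcnj3 lie close to each other, and the tables give no error on a level with which to separate them. The summed level of all 57 was 517 FPKM in the control, 433 in the knockdown, 443 in the cytoplasmic rescue and 446 in the nuclear rescue.

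**Figure D1:**
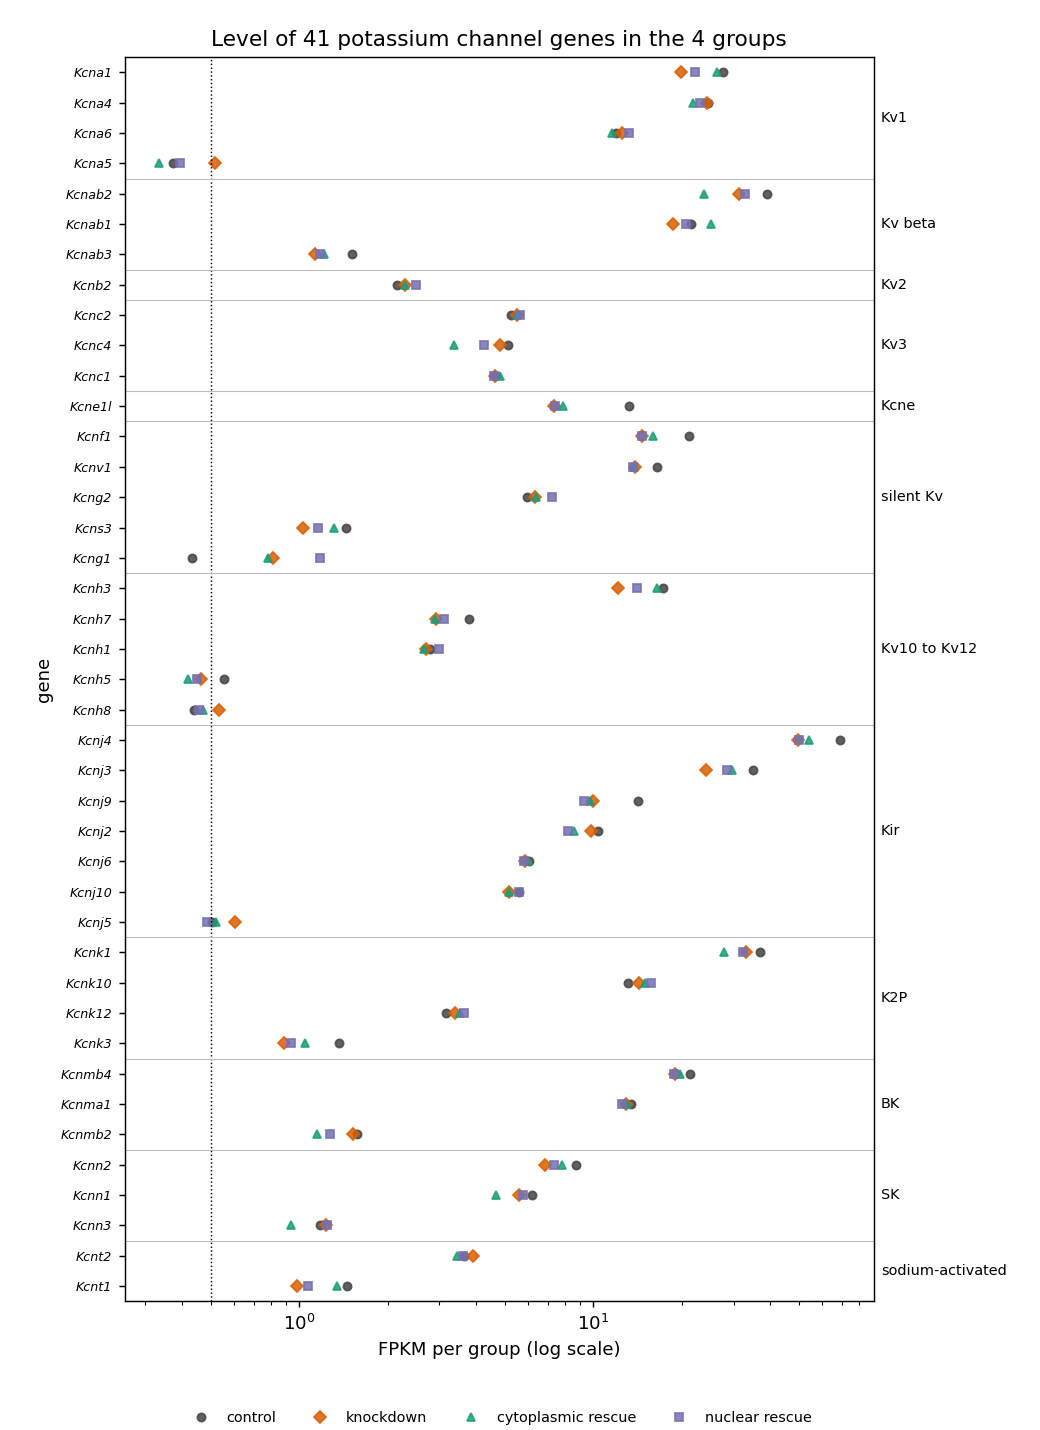
Level of 41 of the 57 genes, those named in the text, in the 4 groups, in FPKM on a log axis, with 1 deposited value per group (symbols) and genes ordered by family and control level. The dotted line marks the minimum of 0.5 FPKM; Kcnj4 and Kcnj3 lie farthest right among the inward rectifiers, with the control symbol to the right of the other 3.

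Most members were above the minimum in every group: 51 in 4 groups, 3 in 3 groups and 3 in 1 group. Just inside it lay Kcna5, with a highest value of 0.517 FPKM, Kcnh8 at 0.533 and Kcnh5 at 0.555. Just outside lay Kcnrg at 0.480 FPKM and Kcng4 at 0.399. Kcna5 and Kcnh8 passed through the knockdown alone and Kcnh5 through the control alone, so their differences are tied to the rule.

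The first comparison asked which channel genes changed when Rbfox1 and Rbfox3 were lowered. In the authors' deposited table, 5 of the 57 members were called at a q below 0.05, against 2.35% of all genes listed, and all 5 were lower, against 1.58% of all genes. They were 3 inward rectifier genes (Kcnj4, Kcnj3 and Kcnj9), the silent Kv subunit gene Kcnf1 and the accessory subunit gene Kcne1l. No member was called higher, against 0.776% of all genes. At an unadjusted p below 0.05 the deposited table held 14 members lower and 1 higher, which is 26.3% of the members against 10.9% of all genes. The 1 higher was Kcng1, which was below the FPKM minimum in the control, so its direction is tied to the rule. The median log2 fold change was -0.08 for the members and 0.02 for all genes. Below 0 lay 37 members and above it 20, beside 6926 and 8581 of all genes.

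**Figure D2:**
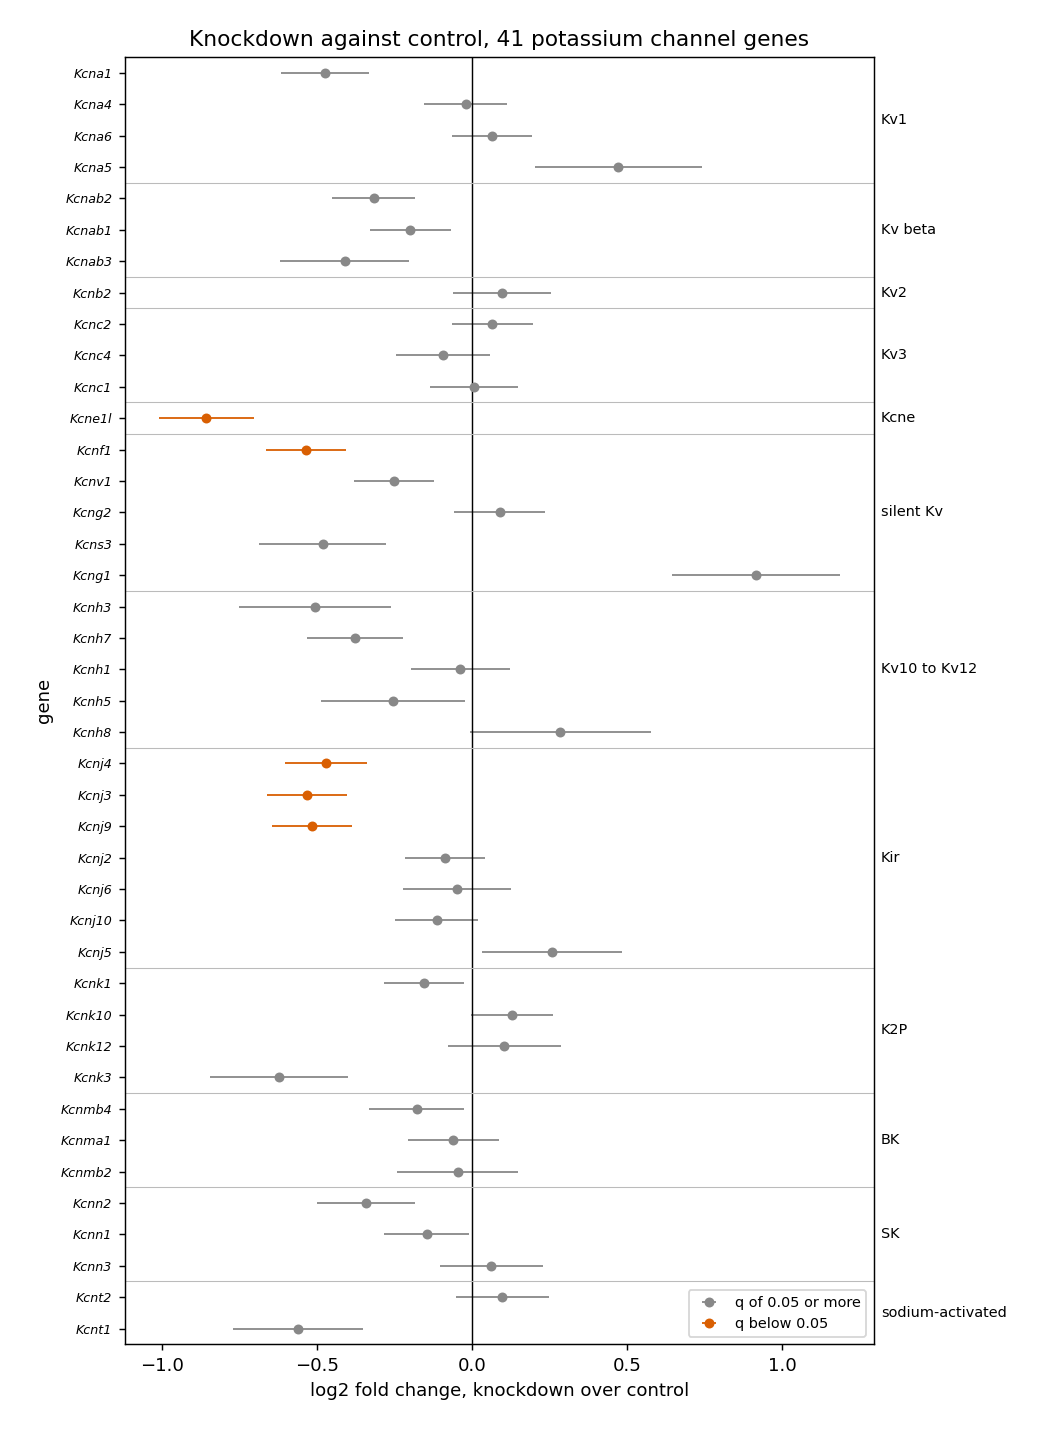
Deposited log2 fold change of the 41 genes named in the text, knockdown over control, grouped by family; bars are 1 implied error on either side (the change over its deposited test statistic). The 5 genes with a q below 0.05 (orange) lie between -0.86 and -0.47, and Kcng1, at 0.91, is the highest of the other genes plotted.

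Inward rectifiers pass current more readily into the cell than out of it and steady the resting potential. Kcnj4, which encodes a strong inward rectifier of forebrain neurons, was at 68.8 FPKM in the control, 49.7 in the knockdown, 54.1 in the cytoplasmic rescue and 50.2 in the nuclear rescue (mm9 chr15:79314144-79335671). The authors' deposited table gave -0.47 as the log2 fold change in the knockdown (q = 0.0364), and the implied error, which is that change over its test statistic, was 0.13. Kcnj3 and Kcnj9 encode subunits of the G protein-gated (GIRK) channels, which open when receptors such as the GABA-B receptor release G protein beta-gamma subunits. Kcnj3 (chr2:55289567-55447936) was at 35.0, 24.2, 29.5 and 28.4 FPKM in the same order of groups. Its log2 change in the knockdown was -0.53 (implied error 0.13), with q = 0.00591 in the authors' deposited table. Kcnj9 (chr1:174251164-174259394) was at 14.3, 9.97, 9.76 and 9.32 FPKM. The authors' deposited table put its knockdown change at -0.51 on the log2 scale (implied error 0.13), with q = 0.0104.

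The other inward rectifiers differed less between control and knockdown. Kcnj6, a further GIRK subunit gene, was at 6.04, 5.84, 6.02 and 5.82 FPKM, and Kcnj5, the last of the GIRK subunit genes, lay near the minimum at 0.505, 0.604, 0.520 and 0.486 FPKM. Kcnj2, a strong rectifier gene, was at 10.4, 9.81, 8.63 and 8.21 FPKM, and its q in the authors' deposited table was 1. Kcnj10, a gene of glial rectifiers, was at 5.58, 5.16, 5.18 and 5.59 FPKM. Of the 10 inward rectifier members, 9 were below 0 in the knockdown and 3 were called, with a family median of -0.10. Over all genes listed, 6926 were below 0 and 8581 above, and 2.35% were called.

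Accessory and silent subunits change the channels they join without forming a conducting channel of their own. Kcne1l, a single-pass accessory subunit gene on the X chromosome (chrX:138739296-138740741; now also named Kcne5), had the lowest q of the members. It was at 13.3 FPKM in the control, 7.33 in the knockdown, 7.89 in the cytoplasmic rescue and 7.41 in the nuclear rescue. The knockdown level was 55.3% of the control, or -0.86 on the log2 scale (implied error 0.15), with q = 1.23e-05 in the authors' deposited table. Kcnf1 (chr12:17178906-17183694), whose product joins Kv2 subunits, was at 21.2, 14.6, 16.002 and 14.6 FPKM. Its knockdown change in the authors' deposited table was -0.53 on the log2 scale (implied error 0.13), with q = 0.00591. Kcnb2, a gene of the Kv2 channels that such subunits join, was at 2.15, 2.30, 2.29 and 2.49 FPKM and was not called, with q = 1 in the authors' deposited table.

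**Figure D3:**
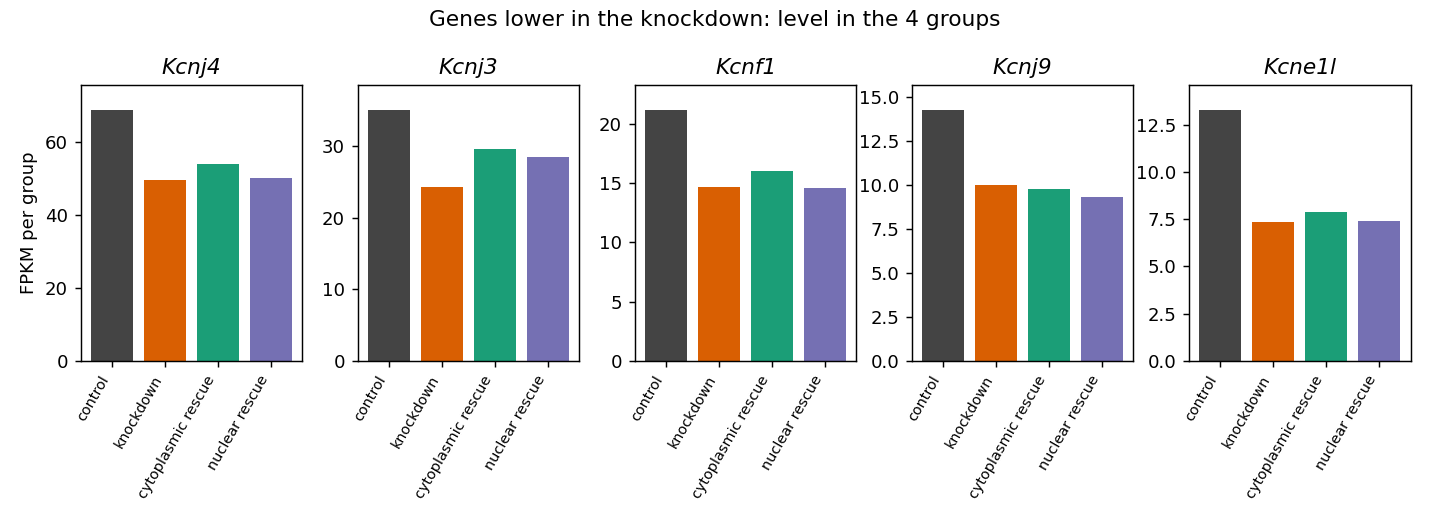
FPKM per group (bars from 0, 1 deposited value each, so no error bar) of the 5 genes lower in the knockdown at a q below 0.05; each panel has its own axis. Kcnj3 stood at 84.4% and 81.2% of the control in the cytoplasmic and nuclear rescues, while Kcne1l stood at 59.5% and 55.9%.

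Among the other silent subunits, Kcng1 had the highest fold change in the knockdown. It was at 0.431 FPKM in the control, 0.812 in the knockdown, 0.785 in the cytoplasmic rescue and 1.18 in the nuclear rescue, and so passed the minimum in 3 groups. The control was not among them, so a higher value in the knockdown is tied to the rule on level. The authors' deposited table gave a log2 fold change of 0.91 and q = 0.0620, above the threshold. Kcns3 was at 1.44, 1.03, 1.32 and 1.16 FPKM, with a log2 fold change of -0.48 and q = 0.490 in the authors' deposited table. Kcnv1 was at 16.5, 13.9, 13.8 and 13.6 FPKM and Kcng2 at 5.97, 6.35, 6.37 and 7.24 FPKM. Of the 8 silent subunit members, 5 were below 0 in the knockdown.

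Kv1 channels sit at axons and their initial segments and limit repetitive firing, and the Kv beta subunits bind to their cytoplasmic face. Kcna1 was at 27.7, 19.9, 26.4 and 22.2 FPKM, with a log2 fold change of -0.47 in the knockdown and q = 0.0675 in the authors' deposited table. The next most abundant Kv1 genes lay closer to their control levels in the knockdown, with q = 1 in the authors' deposited table for each. Kcna4 was at 24.6, 24.3, 21.8 and 23.1 FPKM, and Kcna6 was at 11.9, 12.5, 11.6 and 13.2 FPKM. Kcnab2, the most abundant beta subunit gene, had its lowest level in the cytoplasmic rescue. Kcnab2 was at 39.1, 31.4, 23.9 and 32.8 FPKM, with q = 0.485 in the knockdown in the authors' deposited table. Kcnab1 was at 21.5, 18.7, 25.1 and 20.7 FPKM, and its locus overlaps another listed gene, A730090N16Rik. Kcnab3 was at 1.51, 1.13, 1.21 and 1.18 FPKM. All 3 beta subunit genes were below 0 in the knockdown, with a median of -0.32 on the log2 scale, and none was called.

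The fast Kv3 channels, which let neurons fire at high rates, had no call: Kcnc2 was at 5.26, 5.50, 5.51 and 5.62 FPKM and Kcnc1 at 4.63, 4.65, 4.83 and 4.62. In the ether-a-go-go family (Kv10 to Kv12), Kcnh3 was at 17.2, 12.1, 16.5 and 14.1 FPKM, with q = 0.704 in the knockdown in the authors' deposited table. Its locus overlaps Mcrs1 and 1700120C14Rik, and reads without strand cannot be divided between them. Kcnh7 was at 3.78, 2.91, 2.91 and 3.11 FPKM, with a knockdown change of -0.38 on the log2 scale and q = 0.436 in the authors' deposited table. Kcnh1 was at 2.78, 2.71, 2.66 and 2.99 FPKM.

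K2P channels carry background leak. Kcnk1, the most abundant, was at 36.8, 33.1, 27.9 and 32.4 FPKM. Kcnk10, a mechanically and lipid-sensitive channel gene, was at 13.1, 14.3, 14.97 and 15.7 FPKM, lowest in the control. Kcnk12 was at 3.15, 3.39, 3.52 and 3.65 FPKM, also lowest in the control, and neither gene was called. Kcnk3, an acid-sensitive channel gene whose locus overlaps Gm9899, was at 1.37, 0.889, 1.05 and 0.937 FPKM. Its knockdown change was -0.62 on the log2 scale with q = 0.246 in the authors' deposited table. Of the 8 K2P members, 4 were below 0 in the knockdown and none was called.

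Channels opened by intracellular ions were not called either. Kcnma1, the pore-forming BK gene, was at 13.4, 12.9, 12.98 and 12.5 FPKM, a range of under 1 FPKM over the 4 groups. Its neuronal beta subunit gene Kcnmb4, whose locus overlaps 1700058G18Rik, was at 21.4, 18.9, 19.7 and 18.9 FPKM. Kcnmb2, whose product inactivates the channel, was at 1.57, 1.52, 1.15 and 1.27 FPKM. The small-conductance (SK) genes encode channels that contribute to the hyperpolarisation after spikes. Among them Kcnn2 was at 8.72, 6.88, 7.85 and 7.38 FPKM, with q = 0.630 in the knockdown in the authors' deposited table. The Kcnn2 locus overlaps A330093E20Rik. Kcnn1 was at 6.20, 5.61, 4.67 and 5.76 FPKM. The sodium-activated channel gene Kcnt1 was at 1.45, 0.986, 1.35 and 1.07 FPKM, with a knockdown change of -0.56 and q = 0.301 in the authors' deposited table, while Kcnt2 was at 3.65, 3.90, 3.45 and 3.61 FPKM. Failing the threshold does not show that these levels were equal: the members' median implied error in this table was 0.16 on the log2 scale.

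Other genes of channel complexes and their control, such as the GABA-B receptor genes, the Kv1 partners Cntnap2 and Lgi1 and the scaffold Dlg4, were taken as a list of 29, of which 25 were listed. In the authors' deposited table none was lower in the knockdown, against 1.58% of all genes listed, and 1 was higher, against 0.776%. A single call among 25 genes is too few to set the list apart from these shares. That gene was Cntn2, an axonal adhesion protein gene of Kv1 complexes, at 4.27 FPKM in the control and 5.99 in the knockdown (q = 0.0211). None was called in either rescue, against 0.506% of all genes in the cytoplasmic and 0.11% in the nuclear rescue.

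The rescue comparisons asked what each Rbfox1 isoform changed in the knockdown. They share the knockdown values, so their results are set side by side and no likeness between them is drawn. The authors' deposited tables called 0 of 57 members in the cytoplasmic rescue, against 0.506% of all genes, and 0 of 57 in the nuclear rescue, against 0.11%. At an unadjusted p below 0.05 there were 10 members in the cytoplasmic rescue, 5 lower and 5 higher, and 1 member, higher, in the nuclear rescue. As shares of the members these are 17.5% and 1.75%, beside 5.33% and 1.05% of all genes. The members' median log2 fold change was -0.00 in the cytoplasmic rescue, beside -0.06 for all genes, and 0.02 in the nuclear rescue, beside -0.02. In the cytoplasmic rescue the lower and upper quartiles were -0.18 and 0.11 for the members, beside -0.16 and 0.04 for all genes. In the nuclear rescue they were -0.05 and 0.12, beside -0.09 and 0.06.

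Of the 5 genes lower in the knockdown, Kcnj3 stood at 69.2% of its control level there and at 84.4% and 81.2% in the cytoplasmic and nuclear rescues. The other 4 stood between 55.9% and 78.5% of control in the rescues. For Kcnj3 the authors' deposited tables gave a log2 fold change over the knockdown of 0.29 in the cytoplasmic rescue (unadjusted p = 0.0421, q = 0.736) and 0.23 in the nuclear rescue. The 95% intervals from the implied errors were 0.01 to 0.56 and -0.04 to 0.50. Kcnj4 had 0.12 and 0.02 in the authors' deposited tables, with intervals of -0.17 to 0.41 and -0.29 to 0.32. Kcnf1 had 0.13 and -0.00, with intervals of -0.15 to 0.41 and -0.29 to 0.28. Kcne1l had 0.11 and 0.02, with intervals of -0.21 to 0.43 and -0.31 to 0.34. Kcnj9 had -0.03 and -0.10, with intervals of -0.31 to 0.25 and -0.37 to 0.17. No deposited table compares a rescue with the control, so these levels as a percentage of control carry no test. The 5 genes were chosen for a low knockdown value, and each rescue change is measured from that same value. A knockdown value that was low by error would alone raise each rescue change. The p-value and intervals above therefore do not test a return towards the control.

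**Figure D4:**
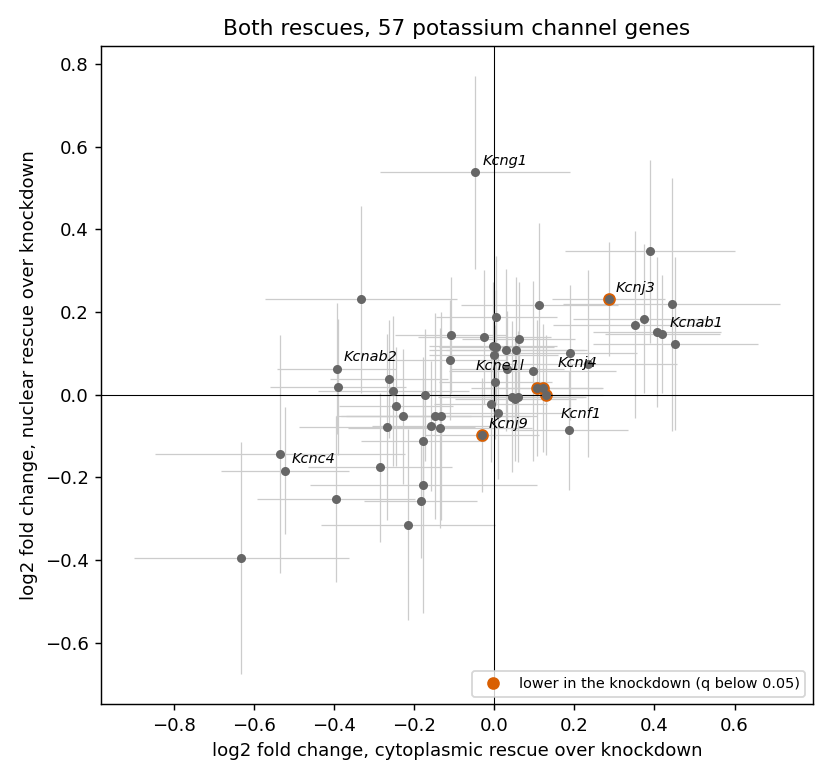
Deposited log2 fold change over the knockdown for each gene, cytoplasmic rescue (x axis) and nuclear rescue (y axis), with bars of 1 implied error. The 5 genes lower in the knockdown are orange points. Both axes hold the same knockdown values, so the slope of the points is not read. Kcnj3 lies at 0.29 and 0.23, and the other 4 orange genes lie between -0.10 and 0.13 on both axes.

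The member with the lowest q in the cytoplasmic rescue was Kcnc4, a Kv3 gene, at 5.14, 4.81, 3.35 and 4.24 FPKM. The authors' deposited tables gave -0.52 over the knockdown (q = 0.0792) in the cytoplasmic rescue and -0.18 in the nuclear rescue. Kcnab2 had -0.39 (unadjusted p = 0.00791) and 0.06 in the authors' deposited tables, and Kcnab1 had 0.42 (unadjusted p = 0.00343) and 0.15. In the authors' deposited tables Kcna1 had 0.41 (unadjusted p = 0.0111) and 0.15, and Kcnt1 had 0.45 (unadjusted p = 0.0286) and 0.12. Others of the 10 were Kcnn3 at -0.39, Kcnmb2 at -0.40 and Kcna5 at -0.63, none with a q below 0.05 in the authors' deposited table. Kcna5 met the rule on level through the knockdown alone (0.517 FPKM). A lower value in the rescue was thus built into its membership, and its place among the 10 is no result. In the nuclear rescue the 1 member was Kcng1, at 0.54 (unadjusted p = 0.0213 in the authors' deposited table), which was also the member with the highest fold change in the knockdown. Kcng1 was below the minimum in the control, so its place in the knockdown is tied to the rule and is no result.

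Whether the 2 rescues differed was tested by a z test on the difference of their log2 fold changes (nuclear minus cytoplasmic). Its variance was the sum of both squared implied errors, with Benjamini-Hochberg adjustment over 15365 genes. The rescues differed in isoform and also in the level of Rbfox1 (16.1 FPKM cytoplasmic, 38.2 nuclear) and Rbfox2 (33.2 and 17.7). These differences cannot be told apart here. No member passed an adjusted p of 0.05, against 0.026% of all genes. At an unadjusted p below 0.05 the z test held 1 member, Kcnab2, with a difference of 0.46 (95% interval 0.03 to 0.88), which is 1.75% of members beside 0.794% of all genes tested. With the larger of both errors in place of their sum, 6 members (10.5%, beside 3.05% of all genes tested) were below an unadjusted 0.05 and 0 below an adjusted 0.05. The shared knockdown enters both errors, so the sum overstates the error of the difference. For Kcng1 the difference was 0.59 with an interval of -0.07 to 1.24, which does not exclude a sizeable difference.

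The splicing tables hold cassette exons that the authors listed as changed, each with an inclusion fraction and the reads across its junctions. Members had 1 of 214 exons listed in the knockdown against control, 0 of 150 in the cytoplasmic rescue against knockdown and 3 of 318 in the nuclear rescue against knockdown. All 3 of the last were in Kcnma1, which was 1 of 3 genes among 292 with at least 3 exons in that table. An exon that a table does not list has no value here, so the control and cytoplasmic rescue levels of the Kcnma1 exons are not known. The 4 exons are given with 15 bases of each neighbouring exon, in transcript sense from GENCODE vM21 (GRCm38), with the cassette exon in capitals. They show what each splice choice adds to the message.

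Kcnh7 21-base exon: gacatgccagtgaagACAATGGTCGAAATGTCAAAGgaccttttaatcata
Kcnma1 12-base exon: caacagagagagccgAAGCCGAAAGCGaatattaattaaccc
Kcnma1 174-base exon: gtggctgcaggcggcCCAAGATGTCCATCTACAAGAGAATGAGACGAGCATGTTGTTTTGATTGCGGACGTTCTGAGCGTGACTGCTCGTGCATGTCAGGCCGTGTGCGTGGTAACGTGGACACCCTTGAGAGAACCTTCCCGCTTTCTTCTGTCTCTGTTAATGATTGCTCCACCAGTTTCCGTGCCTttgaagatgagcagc
Kcnma1 29-base exon: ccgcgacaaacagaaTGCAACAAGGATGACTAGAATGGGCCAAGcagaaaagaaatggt

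The 174-base exon (mm9 chr14:24244789-24244962, minus strand) is the stress-axis regulated exon, or STREX, of the BK channel, a cysteine-rich insert in the intracellular domain. The deposited inclusion fraction was 0.206 in the knockdown and 0.075 in the nuclear rescue. Junction reads joining the exon to a neighbour numbered 47 in the knockdown and 13 in the nuclear rescue, and reads skipping it numbered 95 and 115. The inclusion share of these reads was 33.1% (95% Wilson interval 25.9 to 41.2%) and 10.2% (6.03 to 16.6%). This share counts 2 inclusion junctions against 1 skipping junction, here and for the other exons. It can therefore overstate inclusion and make the intervals and the test too sharp. Fisher's exact test with adjustment over the 318 listed exons gave p = 1.58e-05, where 59.4% of all listed exons passed. With inclusion reads divided by 2 the shares were 19.5% and 4.96%, and Fisher's exact adjusted p was 0.00184. The exon holds the letters GCATG, the core of the Rbfox binding motif, at positions 33 and 76 counted from its first base, and the longer TGCATG at position 75. Of 819 internal exons of 174 bases in the annotation, 15.3% hold GCATG, 1.47% hold it at least 2 times and 3.91% hold TGCATG. The 29-base and 12-base Kcnma1 exons and the Kcnh7 exon, with the 15 bases printed on either side, hold 0 GCATG. The introns beside the exons were not searched, so a link between the motif and the exon changes was not tested.

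The 29-base exon (chr14:24125947-24125975, minus strand) moved the other way. Its deposited inclusion fraction was 0.089 in the knockdown and 0.299 in the nuclear rescue, with 21 and 65 junction reads for inclusion and 84 and 70 for skipping. The inclusion share of junction reads was 20% (13.5 to 28.6%) and 48.1% (39.9 to 56.5%), with a Fisher's exact adjusted p = 2.25e-05. The length is not a multiple of 3, so the exon shifts the reading frame. In the annotated transcripts the coding sequence runs 152 bases past the exon when it is included and 22 bases past the junction when it is skipped, which gives the channel different C-terminal ends.

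The 12-base exon (chr14:24268422-24268433, minus strand), a short in-frame insert, had a deposited inclusion fraction of 0.852 in the knockdown and 0.685 in the nuclear rescue. Inclusion and skipping junction reads numbered 300 and 45 in the knockdown and 213 and 84 in the nuclear rescue, shares of 87.0% (83.0 to 90.1%) and 71.7% (66.3 to 76.5%), with a Fisher's exact adjusted p = 6.39e-06. The 2 inclusion junctions of this exon held unequal reads: 14 and 19 on the upstream side and 286 and 194 on the downstream side. The upstream junction alone gave 23.7% and 18.4%, with a Fisher's exact adjusted p = 0.490. The coverage deposited for the exon was 6.66 and 4.74 times the mean of its neighbours. The inclusion level of this exon is therefore uncertain.

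**Figure D5:**
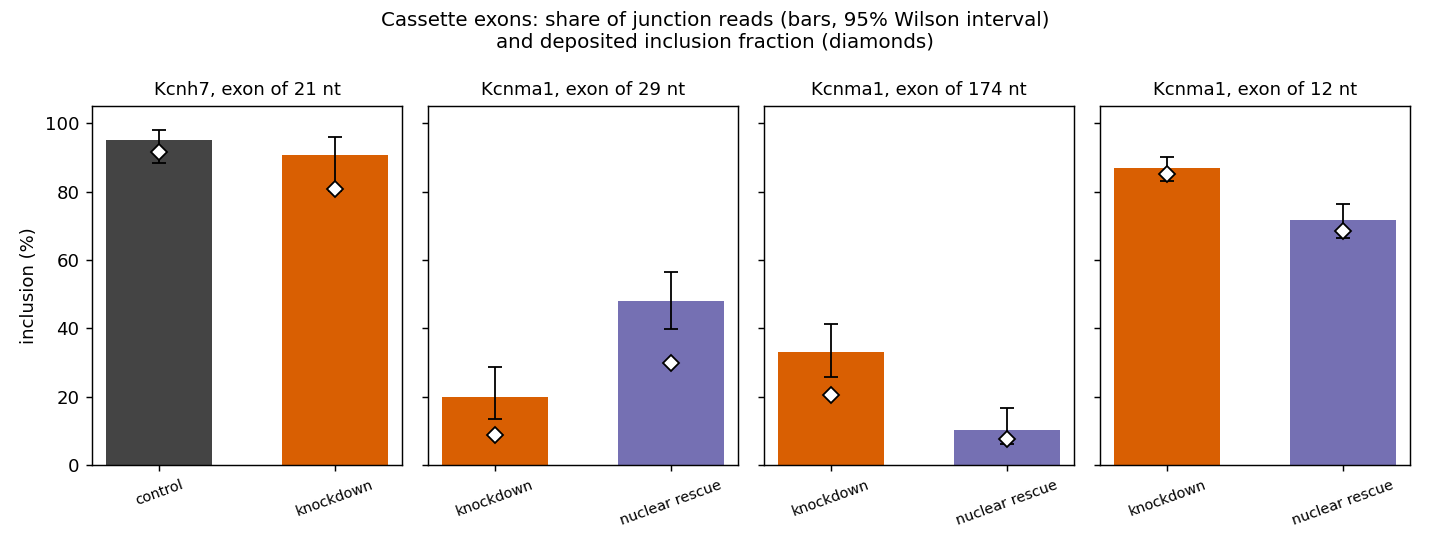
Inclusion of the 4 listed exons: share of junction reads in percent (bars, with 95% Wilson intervals for counting error) and deposited inclusion fraction in percent (diamonds). The intervals of the 3 Kcnma1 exons do not overlap between the knockdown and the nuclear rescue, and those of the Kcnh7 exon overlap between the control and the knockdown.

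The direction differed among the 3 Kcnma1 exons, with the 29-base exon included more and the 174-base and 12-base exons included less in the nuclear rescue. The reads are those of both libraries of a group taken as 1, so Fisher's test compares these pools and not replicate cultures, and the exons had been listed on the same reads. The total level of Kcnma1 differed by -0.05 on the log2 scale between nuclear rescue and knockdown in the authors' deposited table, with a 95% interval of -0.36 to 0.27.

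Kcnh7 had the 1 member exon listed in the knockdown (chr2:62683811-62683831, minus strand), of 21 bases and in frame. Its deposited inclusion fraction was 0.917 in the control and 0.809 in the knockdown, with p = 2.64e-07 in the authors' deposited table. Inclusion and skipping junction reads numbered 80 and 4 in the control and 49 and 5 in the knockdown. The shares were 95.2% (88.4 to 98.1%) and 90.7% (80.1 to 95.98%), with a Fisher's exact adjusted p = 0.376, where 42.5% of all listed exons passed. A difference was not detectable in the junction reads at this depth. The coverage deposited for the exon was 2.34 times the mean of its neighbours in the control and 1.45 times in the knockdown, a measure that was not tested. In the cytoplasmic rescue table, where 33.3% of listed exons passed the same test, no member exon was listed.

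The 3' UTRs of the members were read for the same motif, since the cytoplasmic isoform can act there. The letters TGCATG and GCATG (which lies within TGCATG) were searched on the transcript strand of 1 annotated transcript per gene. That was the protein-coding transcript with the longest 3' UTR, and UTRs under 30 bases were left out. This choice can raise the shares below, and the UTR used in these cells may be shorter. TGCATG was present in 35 of 57 members (61.4%) and GCATG in 45 (78.9%), beside 37.7% and 62.2% of the 12709 genes that reached 0.5 FPKM and have an annotated 3' UTR. The members' UTRs were also longer, with a median of 1860 bases against 1241, and per kilobase GCATG occurred 1.36 times in members and 0.975 times in all genes. Of the 5 members lower in the knockdown, 2 held TGCATG and 4 held GCATG, at 0.913 GCATG per kilobase. Of the 52 members not lower, 63.5% held TGCATG and 78.8% held GCATG, at 1.39 per kilobase. Of 227 genes lower in the knockdown with such a UTR, 43.6% and 63.9% did, at 1.07 per kilobase. The motif was thus not particular to the called members. Kcnj3 held 6 GCATG, 3 of them within TGCATG, in 3324 bases, Kcnj4 held 1 TGCATG in 726 bases, and Kcnf1 and Kcnj9 each held 1 GCATG. Kcne1l held none in 842 bases. The sites with TGCATG are printed with 12 bases on either side and the motif in capitals, with positions counted from the first base of the UTR, since Kcnj3 and Kcnj4 are the 2 called genes that hold it.

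Kcnj4 site at base 398: gtgtgtttctttTGCATGactgtggtctgt
Kcnj3 site at base 1125: ttgtatttcttgTGCATGtttactttatta
Kcnj3 site at base 2649: taacaaaattttTGCATGccttctttgacc
Kcnj3 site at base 3103: cagtatgatttcTGCATGtacttgcagttt

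A match to these letters is a description of the UTR and does not show that a protein bound there.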

How the data were processed

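Total RNA from 8 libraries, 2 per group, was analysed from 3 expression and 3 splicing tables. FPKM values, fold changes, test-statistic scores, p-values and q-values were deposited by the authors as 1 value per group; CASAVA, Cufflinks and build mm9 are named per the submitters' processing notes, with versions not given in the sources used here. Per the file headers, the splicing tables hold inclusion fractions, counts of junction reads, exon coverage and p-values made by the authors with SpliceTrap, for listed exons only. Tests over libraries had been planned and were impossible with group values alone. The deposited q at 0.05 was therefore used, the implied error of a log2 fold change was that change over its test statistic, and junction reads were tested with Fisher's exact test (two-sided, Benjamini-Hochberg over each table). Depth per library is unknown. Intervals on junction reads cover counting error only; which errors the deposited test statistic covers is not given in the sources used here. Start positions of expression loci were counted from 0 and were raised by 1.

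Members and lists were chosen with earlier results of these data known. Genes were named where called, listed for an exon, among the 3 highest in control of their family, at an unadjusted p below 0.05 in any table, or next to the FPKM minimum; Kcnj2, Kcnj5, Kcnj6 and Kcnj10 were added after their values were seen. Some genes this rule names are not reported here, though counts over the 57 members include them. Exon sequences were matched to GENCODE vM21 transcripts by exon and intron lengths. The tests were tested on simulated data. Python 3.11.15, pandas 2.3.3, NumPy 2.4.6, SciPy 1.17.1 and matplotlib 3.10.9 were used. Alternatives were another q threshold, q recomputed, other FPKM minimums, a minimum change, centring, and for exons other read rules; the use of 1 junction alone was chosen after seeing the data.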

Additional observations from a re-analysis of the deposited data

How the results depend on the processing

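The count of members called in the knockdown was 5 of 57. It was 3 at a q of 0.01 and also 3 with a further minimum change of 0.5 on the log2(FPKM + 1) scale; Kcne1l, Kcnf1 and Kcnj3 were called under both, and Kcnj4 and Kcnj9 under neither. It was 7 (6 lower) with q recomputed from the p of that table alone, which added Kcna1 and Kcng1. Centring fold changes on the median gene also recomputes q and called the same 7 genes, so it added none beyond that. The count was 5 with an FPKM minimum of 1 or none. The centring shifts were 0.03, -0.06 and -0.01 on the log2 scale. In each rescue the count was 0 under each of those alternatives. For the listed exon in the knockdown, the authors' call gave 1 and Fisher's exact test 0. With inclusion reads divided by 2, the 3 Kcnma1 exons still passed Fisher's exact test. Their adjusted p-values were 0.00135 (29 bases), 0.00184 (174 bases) and 5.62e-05 (12 bases), and that of the Kcnh7 exon was 0.520. With the upstream junction alone, an alternative chosen after seeing the data, 2 of the 3 Kcnma1 exons passed in the nuclear rescue; the 12-base exon did not. No paired analysis was possible because the tables hold 1 value per group, and for the same reason no replicate could be left out. Whether 1 library decides any of these calls was not tested.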
